A study of Anas platyrhynchos with 8 samples.

Results

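The stromal progenitor and non-collagen matrix genes of duck abdominal fat are 39 genes chosen by name: 17 progenitor markers, 12 matrix glycoproteins and 10 matrix enzymes and inhibitors. Rows carrying these symbols, in any letter case, were found in the deposited mRNA table for 34 of the 39, in 114 of its 48592 transcript rows, and the estimated counts of those rows were summed per gene. PI16, LOXL1, LOXL2, MMP14 and TIMP2 have no row under their symbol and were not analysed here. DLK1 and MMP9 were below the count filter, so 32 members were tested among 10511 genes.

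The samples are abdominal fat of ducks (Anas platyrhynchos) from an F2 population, farmed under shared conditions and sampled at 42 days after hatching. High fat (HF) libraries, 4 in number, come from ducks with a high abdominal fat ratio, and low fat (LF) libraries, also 4, from ducks with a low ratio. No treatment or allele is named in the labels. They also do not say whether a library is a single bird or a pool, so p-values describe the spread between libraries, which may be partly technical. All comparisons set HF against LF, and log2 fold changes above 0 stand for higher levels in HF. Values per library are in counts per 1e6 (CPM), listed in the order of the library numbers from 1 to 4, and pairs of means (± SD over 4 libraries) give HF first.

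Adipose tissue holds, between its fat cells and along its vessels, stromal cells that carry the PDGF receptors and in mammals include the precursors of adipocytes. These cells secrete the small leucine-rich proteoglycans, fibulins, fibrillin and fibronectin that organise the interstitial matrix. Each mature adipocyte is in turn wrapped in a basement membrane, a sheet of laminin and collagen IV linked by nidogens. Lysyl oxidase cross-links elastin and collagen, metalloproteinases cut the matrix and the TIMP proteins inhibit them. The matrix must be rebuilt as fat cells enlarge, and several of these proteins are known in mammals to rise in expanding fat.

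Total estimated counts per library ran from 12696240 to 30836178, and the members took 1.06% to 2.36% of them, with LF-4 lowest and HF-3 highest. Transcripts described as W-linked or Wpkci were present in all HF libraries and in LF-4, at 1818 to 4226 counts, and the other LF libraries held 3 to 8 counts of them. Birds carry the W chromosome only in females and sex is not in the labels, so group and W content are largely confounded, and any batch is likewise unknown. Adipocyte markers (8 genes, ADIPOQ and PLIN1 among them) summed to 22020 to 28667 CPM in HF and 20900 to 28436 in LF. Of the 17 progenitor markers of stromal cells, PDGFRA, PDGFRB, DCN, LUM, FBLN2 and GSN each lay over 100 CPM in every library. Others of that list were low, such as DPP4 at 4.94 to 12.8 CPM, THY1 at 0.648 to 6.35 and DLK1 at 0 to 0.449. PI16 had no row. In whole tissue, fewer cells of a type and less RNA per cell cannot be told apart.

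None of the 32 tested members passed edgeR's quasi-likelihood test at an adjusted p under 0.05, where 0.647% of all genes tested did. At an unadjusted p under 0.05 there were 5 members, CD34, TWIST2, FBLN1, TIMP3 and LAMA2, or 15.6%, against 15.0% of all genes, a share close to theirs. DESeq2 called 3 members, CD34, TWIST2 and FBLN1, where it called 5.64% of all genes. With limma on log2(FPKM + 1), 0 members were called, where 0.897% of all genes were. Of the 32, 21 (65.6%, beside 50.2% of all genes) had a positive and 11 a negative log2 fold change. Their median was 0.26, beside 0.0012 over all genes. In CPM, groups did not overlap for 2 members, FBLN1 and LAMA2, both with lower values in HF. Of all genes, 4.64% did not overlap and were lower in HF, and 9.19% did not overlap in either direction. Within-group spread was wide, with a median SD of log2 CPM of 0.46 over the members and 0.29 over all genes.

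**Figure D1:**
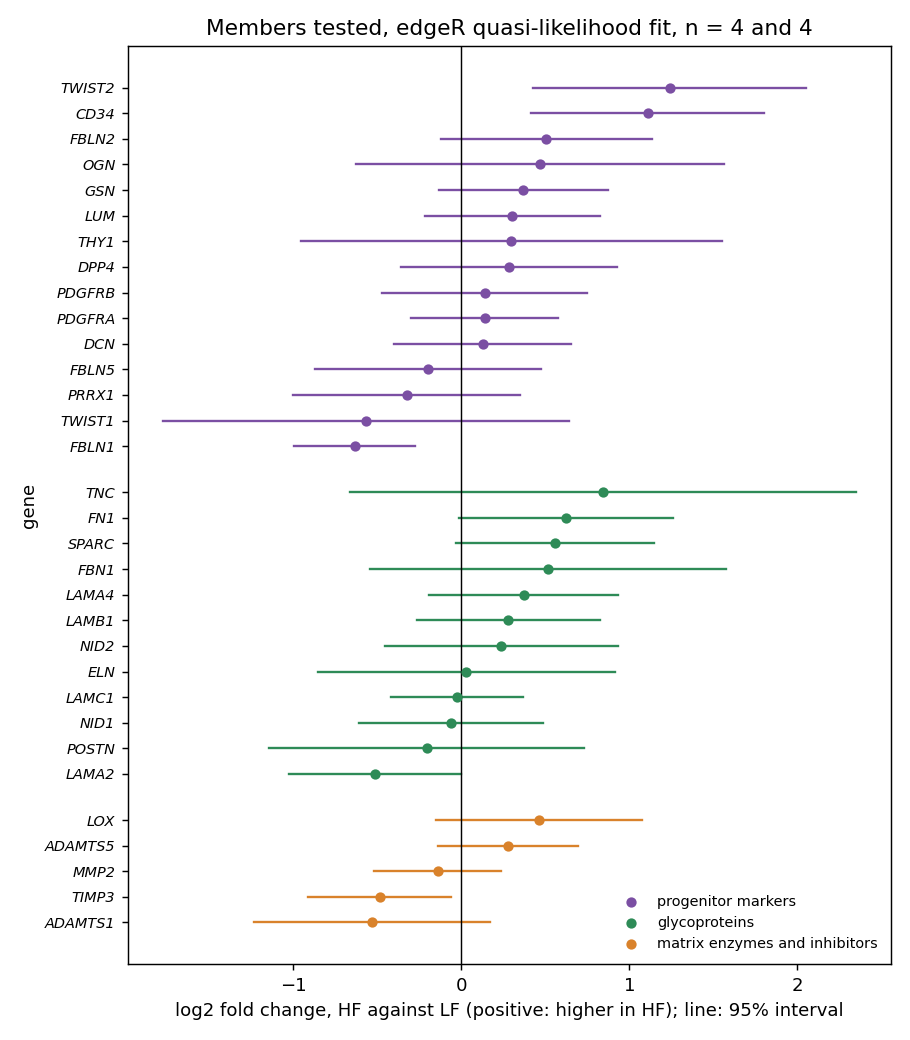
Log2 fold change of the 32 tested members (points) with the 95% interval (lines), grouped by class, from the edgeR fit on 4 HF and 4 LF libraries; values to the right of 0 are higher in HF. The intervals of CD34, TWIST2, FBLN1, TIMP3 and LAMA2 lie to 1 side of 0 before adjustment for the number of genes, and those of the other members cross it.

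Among surface markers of stromal cells, CD34 had the largest log2 fold change. CD34, a sialomucin of progenitor and endothelial cells, stood at 70.8, 94.2, 62.7 and 31.8 CPM across the HF libraries, against 34.6, 38.5, 25.8 and 21.3 CPM across the LF libraries. HF-1, HF-2 and HF-3 lay above every LF library, and HF-4 lay among the LF values. The log2 fold change was 1.11 ± 0.31 (SE), 2.16-fold higher in HF, with a 95% interval of 0.42 to 1.80. It did not pass (edgeR adjusted p = 0.141). Leaving out 1 library at a time gave 0.88 to 1.34, with adjusted p from 0.101 to 0.274. CD34 also marks endothelium, and 8 endothelial markers summed to 3043 to 6191 CPM in HF and 5126 to 7342 in LF. HF-2 was the highest HF library for both. HF-3 had the lowest endothelial sum of all libraries, with CD34 at 62.7 CPM. LF-3 had the highest, with CD34 at 25.8 CPM. The part of endothelial cells in the CD34 values was not tested.

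The PDGF receptors, which receive the growth signal of stromal and mural cells, had overlapping levels in both groups. PDGFRA had means of 361 ± 70.6 and 327 ± 70.7 CPM in HF and LF (SD over 4 libraries each), a log2 fold change of 0.14 with a 95% interval of -0.30 to 0.58. PDGFRB had means of 580.5 ± 151 and 526 ± 189.5 CPM, with an interval of -0.47 to 0.75. A difference of 2-fold in either direction lies outside both intervals, in the fit with group as the only term. That fit does not separate group from W content. DPP4, a peptidase that marks early adipose progenitors in mammals, was low, with 9.22 ± 2.44 and 7.62 ± 2.73 CPM. THY1, a surface protein of fibroblasts, was lower still, with 4.49 ± 1.16 and 3.69 ± 2.58 CPM, and LF-4 was at 0.648 CPM. DLK1, which holds back adipogenesis in mammals, was almost undetected, with 0, 2, 10 and 2 counts in the HF libraries and 0, 0, 0 and 1 in the LF libraries.

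Of the mesenchymal transcription factors, TWIST2 had the highest fold change of all members. TWIST2, a basic helix-loop-helix repressor, was measured at 10.5, 12.3, 23.8 and 21.0 CPM in HF, while LF gave 7.96, 11.003, 5.66 and 3.97 CPM. The groups overlapped only where LF-2 exceeded HF-1. Its log2 fold change of 1.24 ± 0.36 (SE), or 2.36-fold, had a 95% interval of 0.43 to 2.05 and did not pass (edgeR adjusted p = 0.152). Of the 3 rows under this symbol, 2 match by accession another gene of the RefSeq table on chromosome 34, and they held 2 counts of the total, so the sum is in practice the TWIST2 transcript. Its relative TWIST1 was near the limit of the filter, at 0.937 ± 0.0738 and 1.36 ± 1.18 CPM, with LF-2 at 3.10 CPM. PRRX1, a homeobox factor of mesenchyme, had means of 24.0 ± 8.51 and 30.2 ± 9.15 CPM, with a log2 fold change of -0.32.

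FBLN1 was the secreted marker with the smallest p of all 32 members. FBLN1, a fibulin that binds fibronectin and laminin, reached 104, 83.7, 64.0 and 79.9 CPM in HF libraries but 127, 123, 151 and 114 CPM in LF libraries. Every HF value lay below every LF value, and the nearest pair was HF-1 and LF-4. With a log2 fold change of -0.63 ± 0.16 (SE), 1.55-fold higher in LF, it did not pass (edgeR adjusted p = 0.111, and 0.127 to 0.250 with 1 library left out). The other fibulins had log2 fold changes of opposite sign to each other. FBLN2 had means of 310.2 ± 64.4 and 218 ± 99.5 CPM, a log2 fold change of 0.51 ± 0.28, and FBLN5, which guides elastic fibres, had means of 113 ± 27.8 and 129 ± 56.8 CPM. Neither passed (edgeR adjusted p of 0.431 and 0.810).

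The small leucine-rich proteoglycans, which coat collagen fibrils, were abundant. DCN, decorin, had 1047, 893, 1165 and 646 CPM in HF; its LF values were 877, 1188, 697 and 668 CPM. LUM, lumican, had 251, 227, 300.2 and 168 CPM in HF; its LF values were 226, 249.6, 154 and 137 CPM. The groups overlapped for both, with HF-3 and LF-2 the high libraries of DCN and HF-3 that of LUM. Their log2 fold changes were 0.13 ± 0.24 and 0.30 ± 0.23 (SE), with 95% intervals of -0.40 to 0.66 and -0.22 to 0.82. OGN, osteoglycin or mimecan, varied most among them, from 196 to 522 CPM in HF and from 88.3 to 454 CPM in LF. Its log2 fold change of 0.47 ± 0.49 became 1.09 without LF-2 and 0.096 without HF-3. GSN, gelsolin, an actin-severing protein with a secreted form, was the most abundant progenitor marker per length. GSN gave 1975, 2725, 1864 and 1593 CPM in HF and 1402, 2193, 1401 and 1315 CPM in LF. The groups overlapped through LF-2 alone, which exceeded 3 of the HF libraries. GSN had a log2 fold change of 0.37 ± 0.22 (edgeR adjusted p = 0.478).

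Over the 15 tested progenitor markers, 11 (73.3%, beside 50.2% of all genes) were positive and 4 negative. Their median log2 fold change was 0.28, and 0 passed. Without LF-4 that median was 0.046, and 0.14 to 0.39 with any other library left out.

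**Figure D2:**
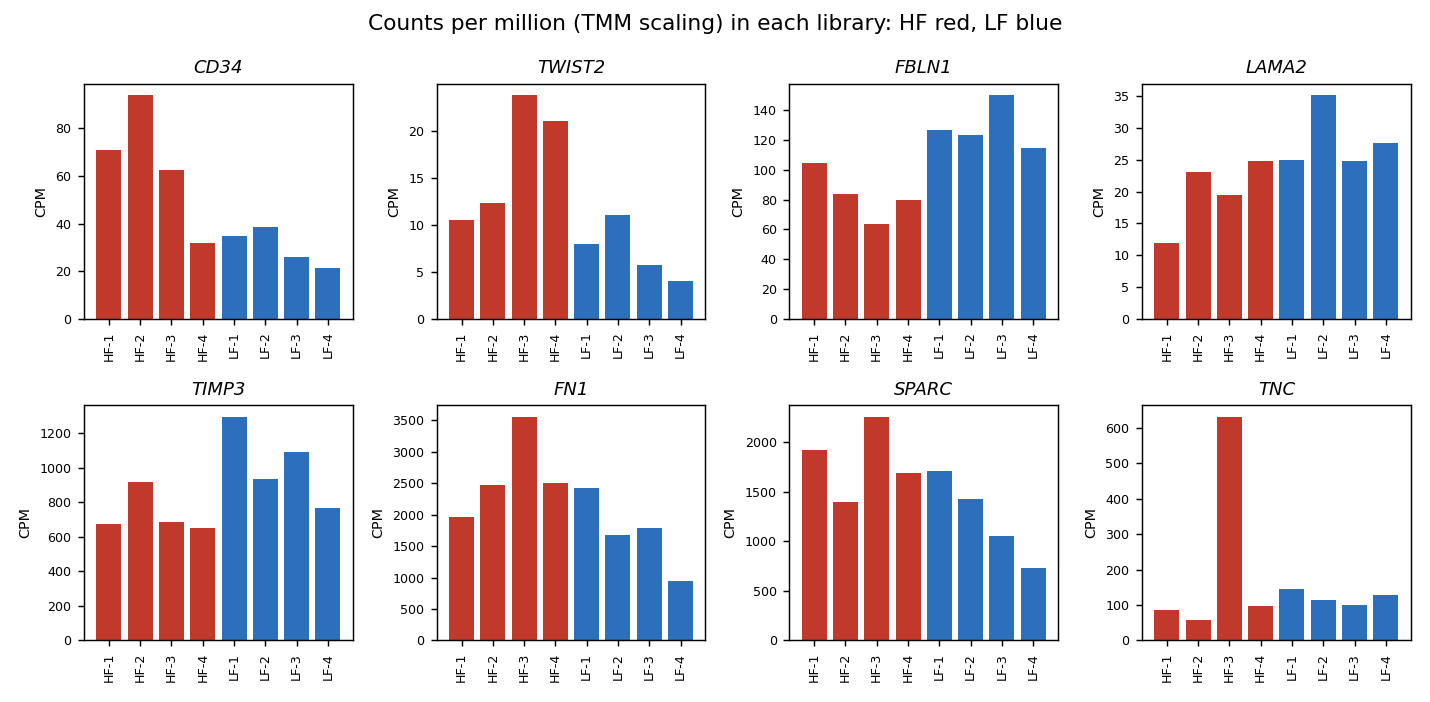
CPM with TMM scaling of 8 members in each library, HF in red and LF in blue, each panel with its own axis from 0. CD34 and TWIST2 are higher in most HF libraries, FBLN1 and LAMA2 are lower in every HF library, and TNC reaches 631 CPM in HF-3 against 57.5 to 145 elsewhere.

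Per transcript length, SPARC was the most abundant member, with means of 1402 ± 265 and 929.7 ± 322 FPKM in HF and LF (SD over 4 libraries each). SPARC, a collagen-binding matricellular protein, showed 1919, 1395, 2258 and 1689 CPM in HF, and 1709, 1430, 1056 and 732 CPM in LF. LF-3 and LF-4 lay below all HF libraries, and LF-1 and LF-2 lay among them. SPARC had a log2 fold change of 0.56 ± 0.26 (SE, edgeR adjusted p = 0.356), and 0.38 to 0.76 with 1 library left out.

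FBN1, fibrillin-1, and FN1, fibronectin, followed in FPKM among the glycoproteins. FN1, the cell-binding scaffold of the interstitial matrix, measured 1966, 2472, 3561 and 2510 CPM over the HF libraries, compared with 2420, 1669, 1782 and 945 CPM over the LF libraries. All HF libraries exceeded LF-2, LF-3 and LF-4, and LF-1 lay inside the HF range. FN1 had a log2 fold change of 0.62 ± 0.28 (SE), with an interval of -0.013 to 1.26 (edgeR adjusted p = 0.340). FBN1, the backbone of microfibrils, measured 4734, 2283, 6853 and 3315 CPM over the HF libraries, compared with 3182, 5716, 1343 and 1767 CPM over the LF libraries. The SD within each group exceeded the difference of the means, 4296 ± 1979 against 3002 ± 1973 CPM. Its log2 fold change was 0.52 with an interval of -0.54 to 1.57, and ran from 0.20 without HF-3 to 1.03 without LF-2. FBN1 alone took 0.136% to 0.682% of the estimated counts of a library.

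Elastin, ELN, the core of elastic fibres, had means of 6.62 ± 1.99 and 6.48 ± 3.70 CPM, and per length it lay far below fibrillin (5.62 ± 1.66 against 461 ± 208 FPKM in HF). POSTN, periostin, an adhesion protein of remodelling tissue, had means of 237 ± 128 and 274 ± 121 CPM. TNC, tenascin-C, a protein of wound and growing tissue, had a mean of 218 ± 276 CPM in HF, raised by HF-3. Its values were 86.5, 57.5, 631 and 96.3 CPM in HF and, with less spread, 145, 113, 100.4 and 127 CPM in LF. HF-1, HF-2 and HF-4 lay below all LF libraries, and HF-3 lay far above all of them. TNC had a log2 fold change of 0.84 ± 0.67 with all libraries and -0.60 without HF-3 (edgeR adjusted p of 0.603 and 0.278).

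The laminin chains of fat, each laminin being a trimer of an alpha, a beta and a gamma chain, can be compared per length. LAMC1, the common gamma chain, had means of 212 ± 24.5 and 210.5 ± 45.2 FPKM in HF and LF. LAMA4, the alpha chain of vessels and adipocytes, had 74.9 ± 19.8 and 56.5 ± 17.1 FPKM, and LAMB1, a beta chain, had 67.4 ± 16.9 and 54.2 ± 17.2 FPKM. LAMA2, the alpha chain typical of muscle, had 3.91 ± 1.24 and 5.72 ± 1.09 FPKM. LAMC1 was highest and LAMA2 lowest among the laminin members in both groups, while LAMA4 and LAMB1 differed by less than their spread. NID1, which bridges laminin to collagen IV, had 139 ± 46.6 and 142 ± 32.0 FPKM, and its relative NID2 had 16.9 ± 4.48 and 14.0 ± 5.76 FPKM.

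In the comparison of groups, LAMA2 gave 11.98, 23.1, 19.4 and 24.8 CPM for HF, whereas LF libraries gave 25.0, 35.3, 24.9 and 27.7 CPM. The groups did not overlap in CPM, though HF-4, LF-1 and LF-3 lay close together. In FPKM the groups did overlap, with LF-1 at 4.25 below HF-2 at 4.71 and HF-4 at 4.74. LAMA2 had a log2 fold change of -0.51 ± 0.23 (SE, edgeR adjusted p = 0.331). LAMC1 had the narrowest interval of the class, -0.42 to 0.37 on the log2 scale around -0.026. LAMA4, LAMB1, NID1 and NID2 had log2 fold changes between -0.058 and 0.37 with SE from 0.24 to 0.31. Smooth muscle and pericyte markers (5 of 8 listed had a row), whose cells also make laminin, summed to 449 to 583 CPM in HF and 413 to 991 in LF, with LF-4 lowest. Their part in the laminin values was not tested.

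Over the 12 glycoproteins, 8 (66.7%, beside 50.2% of all genes) were positive and 4 negative, with a median of 0.26, and 0 passed. The median was 0.050 without LF-4 and 0.14 to 0.34 with any other library left out.

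**Figure D3:**
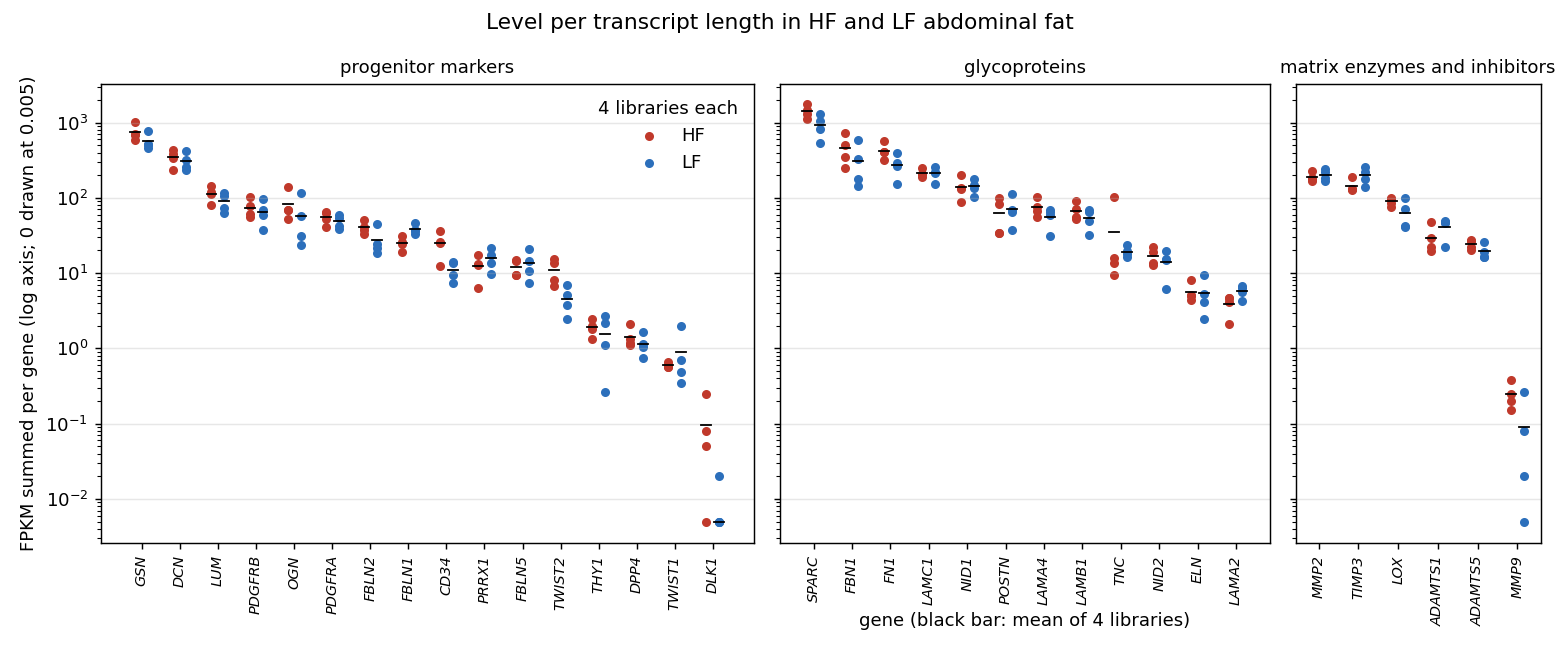
FPKM summed per gene on a log axis for the 34 members with a row, in 3 classes and ordered by mean level; each point is a library, HF in red and LF in blue, and the black bars are means of 4 libraries. SPARC and GSN lead at 1166 and 655 FPKM over all libraries, DLK1 and MMP9 lie at 0.05 and 0.17, and for most genes the colours overlap.

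Of the matrix enzymes, MMP2, gelatinase A, was the most abundant per length, with 189 ± 26.6 and 203 ± 33.7 FPKM. In CPM the HF libraries held 714, 557, 516 and 557 and the LF libraries 524, 771, 566 and 719. The groups overlapped, and the interval of the log2 fold change was -0.52 to 0.24. MMP9, gelatinase B, which neutrophils and macrophages make, was below the count filter. It had 10, 4, 17 and 11 counts in the HF libraries and 0, 1, 11 and 4 in the LF libraries.

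TIMP3, a matrix-bound inhibitor of metalloproteinases, was lower in most HF libraries. TIMP3 values were 672, 914, 684 and 648 CPM in HF and, in LF, 1295, 936, 1088 and 765 CPM. HF-1, HF-3 and HF-4 lay below every LF library, and HF-2 lay between LF-4 and LF-2. A log2 fold change of -0.48 ± 0.19 (SE), 1.40-fold higher in LF, did not pass (edgeR adjusted p = 0.271). It ran from -0.61, without HF-2, to -0.35 with 1 library left out.

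LOX, lysyl oxidase, lies on chromosome Z of the reference assembly, the only tested member found there; DPP4 and LAMA4 could not be placed. LOX values were 519, 397, 534 and 461 CPM in HF and, in LF, 222, 549, 376 and 238 CPM. LF-2 was the highest of all, and the other LF libraries lay below all HF libraries. LOX had a log2 fold change of 0.46 ± 0.27 (SE), and 0.78 without LF-2 (edgeR adjusted p of 0.461 and 0.144). ADAMTS1 and ADAMTS5, secreted proteases that cut versican and aggrecan, had log2 fold changes of opposite sign. ADAMTS1 had means of 147 ± 60.4 and 213 ± 65.3 CPM and ADAMTS5 of 224 ± 35.3 and 185 ± 45.4 CPM, with log2 fold changes of -0.53 ± 0.31 and 0.28 ± 0.19 that did not pass. The class had 5 tested genes, 2 positive and 3 negative, with a median of -0.14.

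Members differed between libraries of a group. LF-4 was the lowest of all 8 libraries for 17 of the 32 tested members, and LF-2 for 0 of them. The lowest library was not counted over all genes, so these counts cannot show whether the members differ from other genes. LF-4 lay below all HF libraries in 22 of the 32 members (68.8%, beside 29.6% of all genes tested) and LF-3 in 14 (43.8%, beside 24.2%). LF-1 did so in 6 (18.8%, beside 25.1%) and LF-2 in 3 (9.4%, beside 22.2%). Members above all HF libraries numbered 3 in LF-4, 6 in LF-3, 8 in LF-1 and 11 in LF-2. In the same order, the shares of all genes above were 27.7%, 23.0%, 25.6% and 21.0%. LF-4 is also the LF library with W-described transcripts. With presence of those transcripts as a covariate, the comparison rests on HF and LF-4, and the medians were 0.79 for progenitor markers, 1.07 for glycoproteins and 0.35 for enzymes. In that fit 10 of the 32 members, or 31.2%, had an unadjusted p under 0.05, where 18.9% of all genes did, and 0 passed. HF libraries and LF-4 all held W-described transcripts, so their presence does not differ between HF and LF-4. Against LF-1, LF-2 and LF-3, W content and the deviation of LF-4 as a library cannot be told apart.

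Some members of the interstitial matrix and those of the basement membrane were highest on average in different libraries. The grouping was made after the values were seen and is given without a test. DCN, LUM, OGN, FBN1, ELN and POSTN deviated on average by 0.76 log2 units in HF-3 and 0.73 in LF-2 from their mean over the 8 libraries. The same genes deviated by -0.59 in LF-3 and -0.73 in LF-4, and all 6 were above their mean in both HF-3 and LF-2. Other interstitial members, left out of this set, did not all share that pattern. FN1 deviated by 0.81 in HF-3 and -0.29 in LF-2, and FBLN2 by 0.67 and 0.55. SPARC deviated by 0.64 in HF-3 and -0.018 in LF-2, and TNC by 2.32 and -0.15. FBLN1 deviated by -0.68 in HF-3 and 0.27 in LF-2, and FBLN5 by -0.38 and 0.30. The laminins and nidogens LAMA2, LAMA4, LAMB1, LAMC1, NID1 and NID2 deviated on average by 0.41 in HF-2, -0.26 in HF-3 and -0.57 in LF-4. They deviated by 0.20 in LF-1 and 0.084 in LF-2, where the fibril genes were also above their mean, at 0.048 and 0.73. Both sets were thus low in LF-4 and neither was low in LF-2. In LF-3 all 6 laminins and nidogens were above their mean, while 5 of the 6 fibril genes were below theirs. The difference between the sets was 1.02 log2 units in HF-3 and -0.75 in LF-3, and each group held values on both sides of 0.

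**Figure D4:**
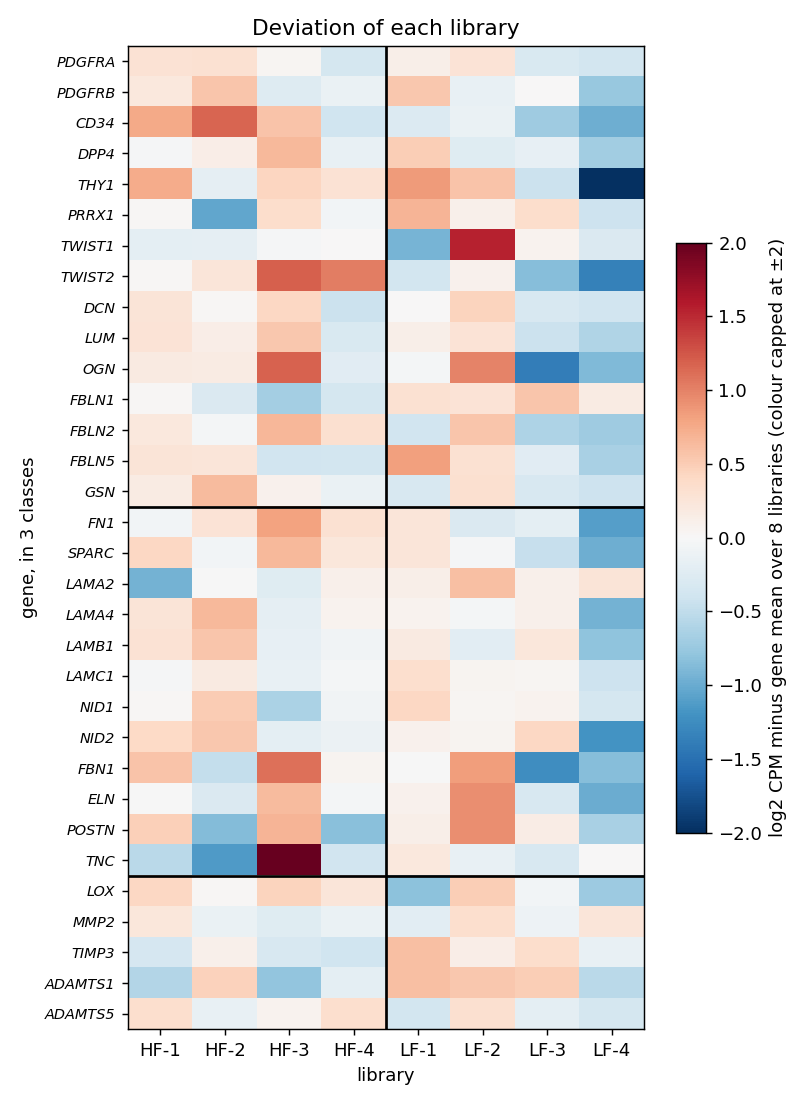
Log2 CPM of each tested member minus its mean over the 8 libraries, red above and blue below, with members in rows by class and libraries in columns, HF left of the black line. LF-4 is red for 4 of 32 members and blue for the others, a count that was not made over all genes. HF-3 and LF-2 are red for DCN, LUM, OGN, FBN1, ELN and POSTN, a set made after the values were seen. HF-3 is blue for the laminins and nidogens.

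Among transcript rows, 80 of the 114 passed the count filter and 0 passed edgeR's test, where 0.0168% of all rows tested did. At an unadjusted p under 0.05 there were 8 of the 80, beside 7.42% of all rows. The log2 fold changes of rows of a gene differed by more than 1 in ADAMTS5, LAMA2, PDGFRA, POSTN, TNC and TWIST1, out of 21 members with at least 2 rows tested. Estimated counts share reads between rows that overlap, so these splits are uncertain. For LAMA2, 1 assembled model held 85.5%, 59.8%, 91.2% and 44.5% of the counts of the gene across HF libraries, against 41.8%, 42.8%, 46.8% and 37.4% across LF libraries. That model had a log2 fold change of 0.16 ± 0.26 (SE), and a second assembled model, with no count in HF-3, had -1.40 ± 1.24. For TNC, the row described as tenascin isoform X7 held 22.9%, 26.6%, 7.3% and 19.8% across HF libraries, against 36.4%, 35.5%, 54.6% and 34.9% across LF libraries. Its CPM had a log2 fold change of -0.92 ± 0.36 (edgeR adjusted p = 0.605). In CPM the groups overlapped for this row, with HF-3 at 46.7 above LF-2 at 40.4 and LF-4 at 44.8. An assembled model held 72.6% of the counts of TNC in HF-3, at 462 CPM. The same model held 57.2% to 68.1% in the other HF libraries and 34.0% to 55.6% in LF. In POSTN, 8 tested rows ranged from -0.91 to 1.40. In PDGFRA, 1 row held over 90% of the counts in every library, with a log2 fold change of 0.15 ± 0.20. ADAMTS5 and TWIST1 had spreads of 1.42 and 1.18 between rows of which some were near 0 CPM.

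**Figure D5:**
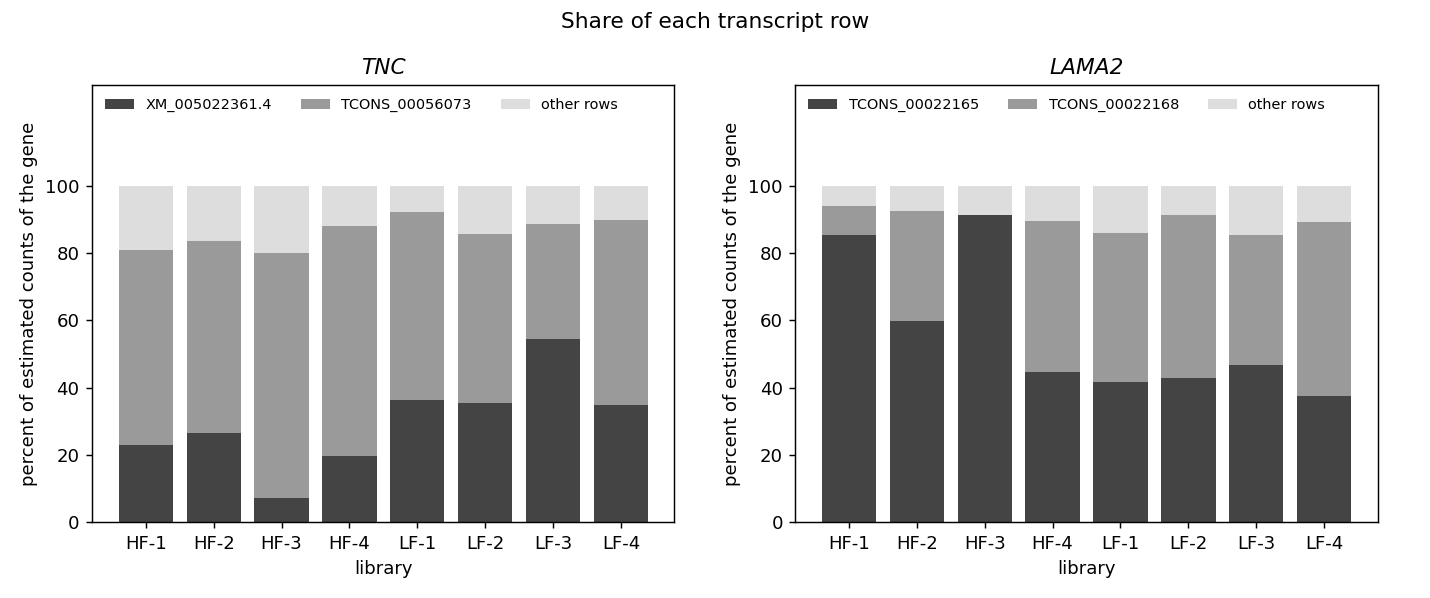
Percent of the estimated counts of TNC and LAMA2 held by the main transcript rows in each library, named by their identifiers in the table. The dark part of TNC, isoform X7, is 7.3% to 26.6% in HF and 34.9% to 54.6% in LF, and the dark part of LAMA2 is 44.5% to 91.2% in HF and 37.4% to 46.8% in LF.

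Other genes of the matrix were taken from 5 lists: further proteoglycans and glycoproteins, further laminins, further enzymes and inhibitors, matrix receptors, and PDGF and TGF-beta signalling. Of 84 tested, 1 rose and 0 fell, where 0.295% of all genes rose and 0.352% fell. PRELP, a leucine-rich proteoglycan that anchors basement membranes to connective tissue, was that gene. PRELP stood at 515, 522, 417 and 612 CPM throughout HF and at 295, 269.9, 198 and 165 CPM throughout LF, with no overlap. PRELP rose 2.23-fold, a log2 fold change of 1.16 ± 0.20 (SE, edgeR adjusted p = 0.0419). It did not pass with any 1 library left out, with log2 fold changes of 1.02 to 1.29 and adjusted p of 0.0511 to 0.147, nor with the replicate number as a block (adjusted p = 0.118).

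The genes of smallest p in the other lists did not pass. ADAMTS2, which trims procollagen, had means of 2062 ± 244 and 1050 ± 341 CPM, with every HF library above every LF library (edgeR adjusted p = 0.0957). It passed without LF-2 (log2 fold change 1.20, adjusted p = 0.0401) and with DESeq2. SMAD7, an inhibitor of TGF-beta signalling, had means of 28.2 ± 4.54 and 14.2 ± 3.35 CPM, also with no overlap (adjusted p = 0.0611), and passed without HF-2 (adjusted p = 0.0461) and with DESeq2. The integrin chains ITGA11, which binds collagen, and ITGA4, which binds fibronectin and is also found on leukocytes, had log2 fold changes of 0.52 ± 0.14 and 1.12 ± 0.31, and DESeq2 called both. Lymphocyte markers, 8 of 9 with a row, summed to 75.4 to 136 CPM in HF and 47.4 to 70.2 in LF, and macrophage markers, 9 of 10, to 969 to 1388 and 848 to 1523. Their part in the ITGA4 values was not tested. LAMA3, an alpha chain of epithelial basement membranes, had 17.7 ± 8.18 and 36.7 ± 13.7 FPKM, above LAMA2 in both groups (log2 fold change -1.03 ± 0.37, adjusted p = 0.235). SMAD3, a transducer of TGF-beta, had a log2 fold change of -0.30 ± 0.11, THBS2, a matricellular protein, -0.30 ± 0.15 and LAMB2, a beta chain, 0.29 ± 0.30. With the W covariate, where LF-4 is the one LF library compared, LAMB2 had a log2 fold change of 1.46. That value rests on LF-4, at 21.8 CPM against 47.8 to 75.0 in the other LF libraries and 54.7 to 64.9 in HF, and without LF-4 the log2 fold change was 0.040.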

How the data were processed

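Libraries and groups were taken from the sample titles (4 HF, 4 LF). The authors deposited estimated counts and FPKM per transcript, per the file headers. The submitters' processing notes list Bowtie2 2.2.8 and TopHat2 2.1.1 with no role. Quantifier, genome build and strandedness: not given in the sources used here, so reads of overlapping or antisense genes cannot be told apart. Counts and FPKM were summed per symbol (13213 symbols, 2137 rows without one left out), and counts were rounded. Tests used edgeR 4.0.16 (R 4.3.3): filterByExpr, TMM, quasi-likelihood, group as the only term, Benjamini-Hochberg over all genes tested, threshold 0.05. The fit was also run on simulated counts with the same spread set for every gene, which cannot give its power or error rate for these members. SE and 95% intervals were derived from each fold change and its quasi-likelihood F. CPM is TMM-scaled. Chromosomes are from RefSeq's table of IASCAAS_PekinDuck_T2T, which matched 54 of the 114 member rows by accession without version, 52 of them with the same symbol.

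Members and lists were chosen with earlier results of these data known. Values per library are given by rule for members with an unadjusted p under 0.05, with groups that do not overlap, or among the 3 of highest FPKM in a class, and of each other list the genes past the threshold and the 2 of smallest p are named. Values per library of OGN, TNC and other members were added after seeing them. Alternatives were DESeq2 1.42.0 and its size factors, no filter, limma 3.58.1 on log2(FPKM + 1) or log2(FPKM + 0.1) at a mean FPKM of at least 0.5, a replicate block, a W covariate and leaving out each library. The lncRNA table was not used.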

Additional observations from a re-analysis of the deposited data

Results flagged for a closer look

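A single library stood far from the other 3 of its group in 4 of 64 member and group pairs, by a gap test at the 95% level that flags about 5% of groups by chance. TNC in HF-3 was at 631.3 CPM against 57.5 to 96.3 in the other HF libraries, and the log2 fold change went from 0.84 to -0.60 without it. GSN in LF-2 was at 2193 CPM against 1315 to 1402, with a log2 fold change of 0.37, or 0.57 without it. TIMP3 in HF-2 was at 914.0 CPM against 648 to 684, with -0.48, or -0.61 without it. ADAMTS1 in LF-4 was at 115.7 CPM against 237 to 255, with -0.53, or -0.74 without it.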

How the results depend on the processing

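The count of members past the threshold was 0 in the edgeR and limma fits, leaving out any library included, and 3 with DESeq2, and that of their transcript rows was 0 in each edgeR fit and 2 of 80 with DESeq2, which called 2.09% of all rows. Over all genes 68 passed, 593 with DESeq2, 128 with the W covariate, 9 with the replicate block and 2 to 92 with a library left out. Members with an unadjusted p under 0.05 numbered 5 of 32 (beside 15.0% of all genes). Leaving out a library gave 3 of 32 (without LF-3, 1353 of 10629 genes) to 10 of 33 (without LF-2, 1694 of 10611 genes). At the same unadjusted p, edgeR without the count filter gave 7 of 34 members (13.6% of all genes) and the replicate block 4 of 32 (11.9%). DESeq2 gave 7 of 32 (17.1%), and limma 7 of 32 at either pseudocount (15.0% and 15.1%). The W covariate leaves HF compared with LF-4. The medians were then 0.79 for progenitor markers, 1.07 for glycoproteins and 0.35 for enzymes and inhibitors, in place of 0.28, 0.26 and -0.14. With a library left out they ran from 0.046 to 0.39, 0.050 to 0.34 and -0.25 to -0.042.

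The labels do not say whether libraries of the same number are paired. Deviations of same-numbered libraries correlated at -0.22 to 0.028, and no HF library correlated best with the LF library of its number. These correlations showed no sign of a pairing but cannot settle whether there was one. The replicate block left 0 members past the threshold and 9 genes in all.

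Signs of members that did not pass turned in 25 of 480 refits. With the W covariate the log2 fold change turned to 0.35 for ADAMTS1, 0.62 for FBLN5, 0.42 for LAMC1, 0.37 for NID1, 0.69 for POSTN, 0.31 for PRRX1 and 0.21 for TWIST1, and with limma to 0.031 for LAMC1 at either pseudocount. With a library left out the ranges that crossed 0 were -0.21 to 0.48 for ELN, -0.39 to 0.10 for FBLN5, -0.15 to 0.092 for LAMC1, -0.27 to 0.11 for NID1, -0.0054 to 0.44 for NID2, -0.041 to 0.39 for PDGFRB, -0.51 to 0.12 for POSTN, -0.058 to 0.67 for THY1, -0.60 to 1.16 for TNC and -0.83 to 0.23 for TWIST1. The values with the W covariate compare HF with LF-4 alone. The cause of the other turns was not tested. DLK1 and MMP9, with 15 and 58 counts over the 8 libraries, were below the count filter, and TWIST1 held 6 to 92 counts a library.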

Other observations

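HF-3, the library with the high TNC value, was also high in MMP7, matrilysin, a gene of the further enzymes list: 54.3 CPM against 0.950 to 2.48 in the other HF libraries and 0.505 to 1.93 in LF. The log2 fold change of MMP7 was 3.94 ± 1.26 (SE, edgeR adjusted p = 0.186), and 0.95 at its lowest with a library left out. HF-3 held 10 of the 15 counts of DLK1.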
